A study of Arabidopsis thaliana with 9 samples.

Results

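Arabidopsis thaliana anthers of dyt1 mutants, ams mutants and wild-type plants were profiled on Affymetrix arrays, and the subject here is the small set of probe sets that stood highest in dyt1 alone. A probe set, the group of short probes that reads 1 transcript or a few alike ones, was chosen when its lowest dyt1 value lay at least 0.75 on the log2 scale above the highest of its 6 ams and wild-type values. Of 22746 probe sets that are not array controls, 11 (0.0484%) met that gap. The rule then left out AT2G16960, AT1G58025, AT1G42705 and the beta-expansin EXPB1 by name, of which AT1G58025 also had ams values at least 1.0 below all others. None of the 11 was left out for a cytochrome P450 or UDP-glycosyltransferase name or as a plastid gene, and 7 probe sets remained. The members were chosen by their measured dyt1 values against those of ams and wild type on all 9 arrays, so every comparison of dyt1 with ams or wild type below describes the chosen probe sets and carries no test.

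The groups were anthers of dyt1 mutants, of ams mutants and of wild-type plants of the Columbia (Col) background, with 3 samples each that the labels call biological replicates. All anthers were dissected from young buds at stages 4 to 7, and all plants, aged 3 to 4 weeks, were grown under long days. The labels name neither the mutant alleles nor the background of the mutant lines, and they do not say how many plants went into a sample. The values are log2 expression values from RMA, a method that corrects background, normalizes the arrays to 1 distribution and summarises the probes of a probe set, and levels of different probe sets cannot be set against each other.

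DYT1 and AMS are transcription factors of the bHLH class that act in the tapetum, a layer of anther wall cells that surrounds the meiotic cells and later feeds the microspores and supplies material for the pollen wall. DYT1 acts early in tapetum development and lies upstream of AMS in the known regulatory cascade, and mutants of either gene are male sterile. DYT1 is best known as an activator, so genes with more signal in its mutant are a less studied side of the phenotype. AMS, the gene mutated in ams, had 5.66, 3.96 and 4.78 in the dyt1 arrays, 9.61, 9.36 and 9.37 in the ams arrays and 7.93, 7.70 and 7.55 in the wild-type arrays. Its signal was thus highest in ams, and because the sources used here do not place the mutation relative to the probes, it does not check the ams label. DYT1 was named by 0 probe sets and was not analysed here. In whole anthers, more cells of a type and more RNA per cell cannot be told apart.

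The 7 probe sets paired with few annotated genes. The platform annotation gave 1 gene for 4 of them, AT1G35650, AT4G03156, AT4G22390 and AT2G30120, several genes for 1 (256166_at) and no entry for 2 (266157_at and 257982_at), which are called here by their probe set. Values are given for these 3 as well, a choice made after their values were seen. RefSeq lists AT1G35650 as a pseudogene and AT4G03156, AT4G22390 and AT2G30120 as protein coding. Among the 13436 tested probe sets with 1 gene matched in RefSeq, 7.36% read a pseudogene. The symbol it gives each of the 4 is the locus code. Product names were not used here, so no function is stated for them. Each of the 4 was read by 1 probe set, so no second probe set of the same gene could be set beside it. AT1G35650 and AT4G22390 were read by probe sets whose names end in _s_at, a mark of probes shared between alike transcripts, so related sequences may add to their signal. Among all probe sets tested, 4.11% carry that mark. Sequences of the genes and probes were not used here.

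The signal in dyt1 stood apart from low levels elsewhere for 3 of the 7. AT1G35650 had 6.63, 7.14 and 6.69 in the dyt1 arrays, 3.77, 3.64 and 4.30 in the ams arrays and 4.36, 4.31 and 4.28 in the wild-type arrays. This was the widest gap of any probe set on the array, 2.27 between the lowest dyt1 value and the highest other value. AT4G03156 had 6.32, 6.32 and 5.82 in dyt1, 3.86, 3.78 and 3.62 in ams and 3.96, 3.82 and 3.90 in wild type, a gap of 1.86. Probe set 256166_at, which the annotation pairs with 2 genes, had 6.78, 5.84 and 6.58 in dyt1, 3.29, 3.56 and 3.49 in ams and 4.10, 3.84 and 3.96 in wild type, a gap of 1.74. For all 3, the ams and wild-type means lay below the lower quartiles of the arrays (4.58 to 4.77), which without detection calls is not distinguishable from background. They are therefore probe sets with signal in dyt1 and none told from background in the other 2 genotypes, and their differences are given as lower bounds.

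The other 4 were measured above that level in every genotype. AT4G22390 had 7.22, 7.27 and 6.79 in dyt1, 4.79, 4.81 and 5.17 in ams and 5.23, 5.63 and 5.35 in wild type. Its gap was 1.16, and its ams values all lay under its wild-type values. Probe set 266157_at had 7.79, 7.17 and 7.47 in dyt1, 5.58, 5.78 and 6.03 in ams and 6.27, 6.21 and 6.18 in wild type, with a gap of 0.90 and again with every ams value under the wild-type values. Probe set 257982_at had 6.84, 6.75 and 6.88 in dyt1, 5.68, 5.54 and 5.56 in ams and 5.73, 5.91 and 5.48 in wild type, with a gap of 0.83. AT2G30120 had 6.69, 6.62 and 6.43 in dyt1, 5.67, 5.60 and 5.35 in ams and 5.39, 5.56 and 5.23 in wild type, with a gap of 0.76. In 257982_at and AT2G30120 the ams and wild-type values overlapped.

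**Figure D1:**
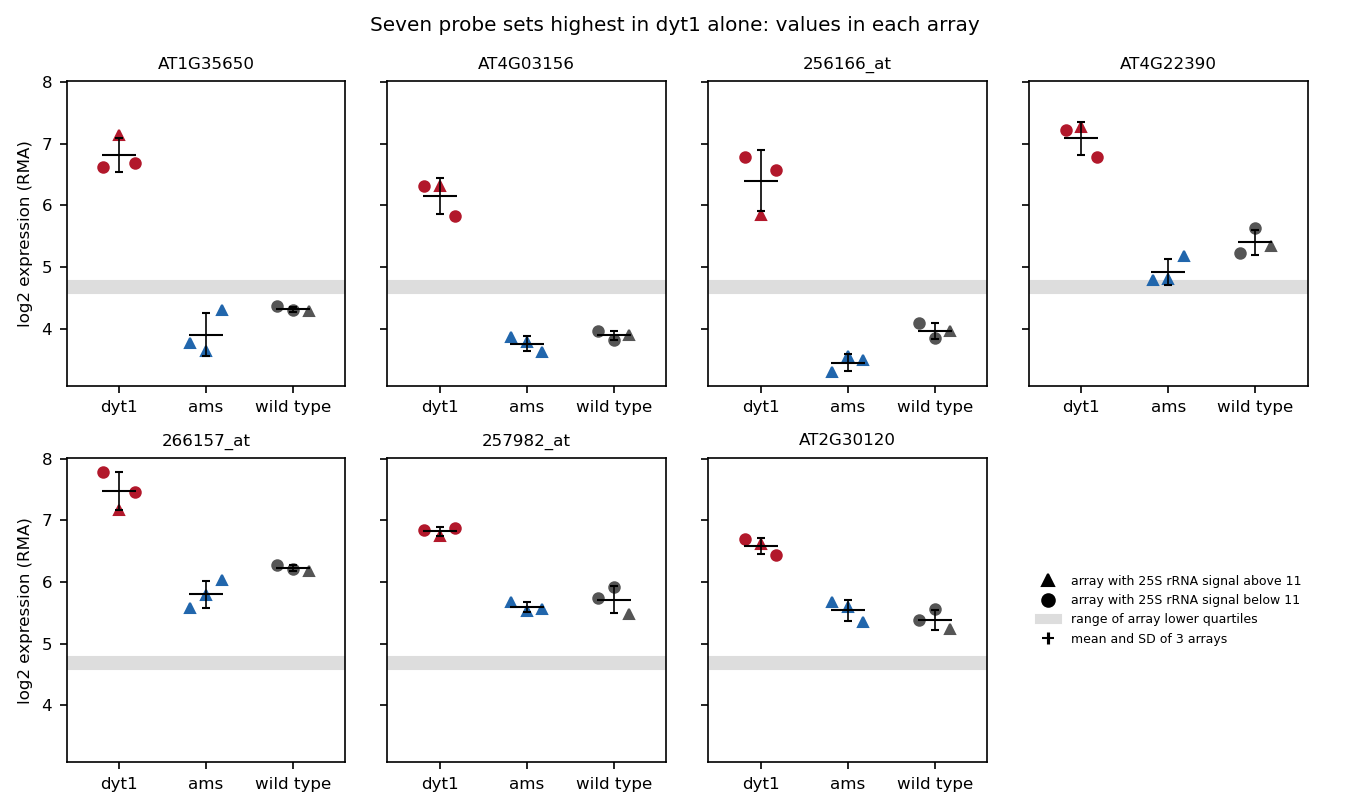
Log2 expression of the 7 probe sets highest in dyt1 alone, 1 panel each, with the 3 arrays of dyt1, ams and wild type as points (triangles, arrays with 25S ribosomal RNA signal above 11; circles, below 11) and the mean and SD of each group in black. The grey band is the range of the lower quartiles of the 9 arrays, 4.58 to 4.77, and the ams and wild-type points of AT1G35650, AT4G03156 and 256166_at all lie under it.

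For the 3 at background, the level in the other genotype was taken, on each array, as the higher of that array's lower quartile and the measured value. On that basis AT1G35650 was at least 4.22-fold higher in dyt1 than in wild type, 256166_at at least 3.15-fold and AT4G03156 at least 2.66-fold. For the 4 measured in every genotype, the log2 difference, dyt1 minus wild type, was 1.69 (SE 0.19, 3.23-fold) for AT4G22390 and 1.25 (SE 0.19, 2.39-fold) for 266157_at. AT2G30120 differed by 1.19 (SE 0.15, 2.29-fold) and 257982_at by 1.11 (SE 0.15, 2.16-fold). These errors come from a limma fit that pools the spread of the 3 genotypes, with n = 3 arrays per genotype.

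Set against ams by the same bound, AT1G35650 was at least 4.56-fold higher in dyt1, 256166_at at least 3.41-fold and AT4G03156 at least 2.88-fold. The log2 differences of the measured 4, dyt1 minus ams, were 2.17 for AT4G22390 (4.50-fold), 1.68 for 266157_at (3.20-fold), 1.23 for 257982_at (2.34-fold) and 1.05 for AT2G30120 (2.06-fold). Of these 4, AT2G30120 was the one whose dyt1 mean lay closer to ams than to wild type. Over all 22746 probe sets the median log2 difference was 0.05 for dyt1 minus wild type and 0.07 for dyt1 minus ams.

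At an adjusted p under 0.05 (limma with Benjamini-Hochberg adjustment over all probe sets), 6 of the 7 were called higher in dyt1 than in wild type, where 0.0747% of all probe sets were, and none lower, where 0.119% were (0.193% in either direction). All 7 were called higher in dyt1 than in ams, where 2.45% of all were, and none lower, where 2.42% were (4.87% in either direction). The rule chose on these contrasts, so nothing is read from either count. Probe set 266157_at was the one not called against wild type. The first count was 2 when the fit held dyt1 and wild type alone, and between 1 and 7 when 1 array was left out. It fell to 1 without dyt1 3 or without wild type 1, to 2 without dyt1 1, wild type 2 or ams 3, and was 4 without ams 1 or ams 2.

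**Figure D2:**
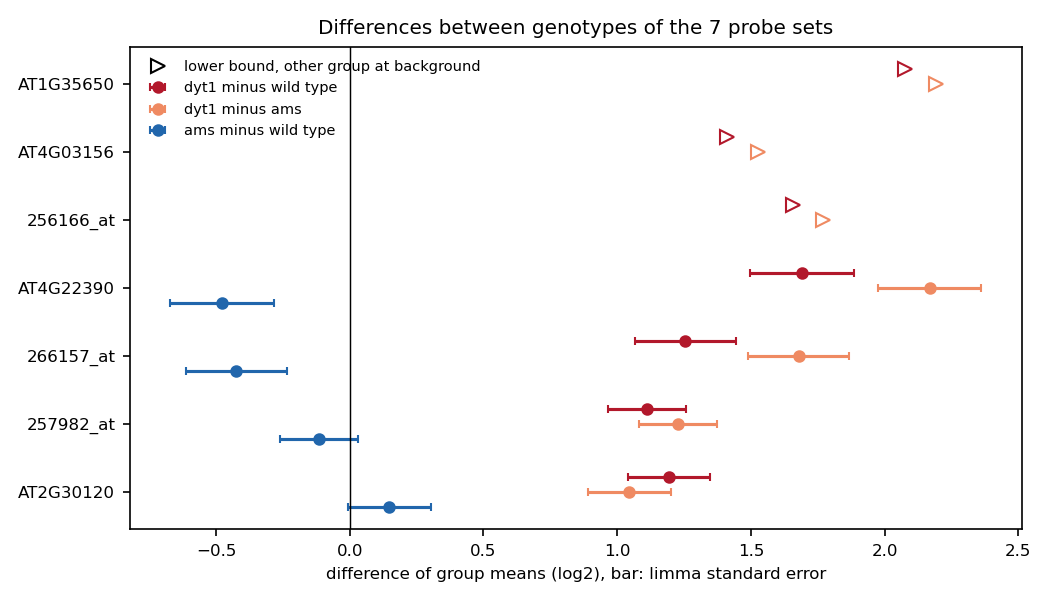
Differences of group means on the log2 scale for the 7 probe sets, with limma standard errors as bars: dyt1 minus wild type, dyt1 minus ams, and ams minus wild type. Open triangles are lower bounds for the 3 probe sets at background in ams and wild type, which have no ams minus wild-type point; for the other 4 the ams differences run between -0.48 and 0.15.

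The comparison of ams with wild type did not rank the 7 probe sets, although the rule capped both groups and removed probe sets with ams far below the rest. None of the 7 was called in it in either direction, where 3.51% of all probe sets were called by limma, 2.45% higher and 1.06% lower. Those calls were 558 higher and 240 lower, and centring the arrays on their medians gave 417 higher and 332 lower. The balance turned with array weights (3954 higher and 4962 lower) and without wild type 3 (1866 higher and 2280 lower). Adjusted p values ran from 0.200 for AT4G22390 to 0.685 for 257982_at. At an unadjusted p under 0.05 in the same limma fit AT4G22390 alone passed, and 21.6% of all probe sets did. A missed threshold does not show that levels were equal. Of the 4 measured above background, the ams mean was the lower one in 3. The log2 differences, ams minus wild type, were -0.48 (SE 0.19) for AT4G22390, -0.42 (SE 0.19) for 266157_at, -0.12 (SE 0.15) for 257982_at and 0.15 (SE 0.15) for AT2G30120. Their median was -0.27, beside -0.05 over all probe sets, of which 55.8% were lower in ams. No difference is given for the other 3, whose levels in both groups cannot be told from background. In AT4G22390 and 266157_at every ams value lay under every wild-type value, a pattern that 16.3% of all probe sets had. The values of 256166_at had the same order, but at background in both groups. With array weights, 256166_at (limma adjusted p = 0.013), 266157_at (limma adjusted p = 0.0304) and AT1G35650 (limma adjusted p = 0.0491) were called lower in ams, the first and the last of them at background in both groups, and 8916 probe sets were called in all.

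Some properties of the arrays followed genotype only in part. All 3 ams arrays had high 25S signal, while dyt1 and wild type were split. In comparisons with ams, this property and genotype can therefore be told apart only in part. Signal of the control for 25S ribosomal RNA was above 11 in dyt1 2, wild type 3 and the 3 ams arrays (11.5 to 12.4) and below it in dyt1 1 and 3 and wild type 1 and 2 (5.51 to 9.59). The median of 69 plastid-encoded genes was 7.76 to 8.49 in the first set and 9.28 to 10.3 in the second, and the 3' minus 5' difference of actin, which grows as RNA degrades, lay between 2.10 and 2.92 in the first set and between 1.04 and 1.38 in the second. Added poly-A control transcripts had mean signals of 6.67 to 7.17 on 7 arrays, against 3.85 on wild type 1 and 3.76 on wild type 2. The part of these properties in the values of the 7 was not tested.

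Within each set of arrays the sign and the least size of the dyt1 excess are fixed by the 0.75 gap, so the following values only describe its size. Among the 4 arrays with low 25S signal, dyt1 1 and 3 averaged 7.005 and wild type 1 and 2 averaged 5.43 for AT4G22390, a log2 difference of 1.57, and dyt1 2 lay 1.92 above wild type 3 among the arrays with high signal. The pair of differences was 1.38 and 0.997 for 266157_at, 1.04 and 1.27 for 257982_at and 1.09 and 1.395 for AT2G30120. Spike-in level and genotype cannot be told apart in the low-signal set, and the high-signal difference rests on 1 array against 1. Within the high-signal set the ams mean minus wild type 3 was -0.42 in AT4G22390, -0.38 in 266157_at, 0.11 in 257982_at and 0.31 in AT2G30120.

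Within dyt1, the 7 did not move together between arrays. Array dyt1 2 lay above the mean of dyt1 1 and 3 by 0.48 in AT1G35650, 0.27 in AT4G22390, 0.25 in AT4G03156 and 0.06 in AT2G30120. It lay below that mean in 256166_at (-0.84), 266157_at (-0.46) and 257982_at (-0.11). Over all probe sets this difference ran between -1.41 and 0.97 from the 5th to the 95th percentile, and the rule itself barred members with a low dyt1 2 value. In wild type, array 3 differed from the mean of arrays 1 and 2 by between -0.34 (257982_at) and 0.0055 (AT4G03156), where the same percentiles over all probe sets were -1.07 and 1.31.

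The number of probe sets that met the rule depended most on dyt1 2. Leaving it out and applying the rule to the other 8 arrays gave 198 probe sets, leaving out wild type 3 gave 15, and leaving out both gave 241. Leaving out any other array gave 10 to 17, with 17 without dyt1 3. All 7 were chosen in each of these settings, which follows from the rule, since fewer arrays can narrow no gap. With each array centred on its median, which moved the median of all probe sets by -0.11 in dyt1 minus wild type and in ams minus wild type, 5 were chosen, and 257982_at and AT2G30120 dropped out. With the 9 arrays quantile normalized again, 9 were chosen, among them 6 of the 7, without 266157_at.

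The gap had no natural break at the threshold. Just inside it were AT2G30120 (0.76), 257982_at (0.83), 266157_at (0.90), AT4G22390 (1.16) and 256166_at (1.74). Just outside were 248008_at (0.745), 265100_at (0.70), 250078_at (0.70), AT1G52550 (0.70) and 254625_at (0.67), of which AT1G52550 alone was named by the annotation. AT1G52550 had 6.50, 6.09 and 6.30 in dyt1, 5.16, 5.04 and 4.86 in ams and 4.95, 5.13 and 5.39 in wild type. A gap of at least 1.0 left 4 of the 7, AT1G35650, AT4G03156, 256166_at and AT4G22390.

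**Figure D3:**
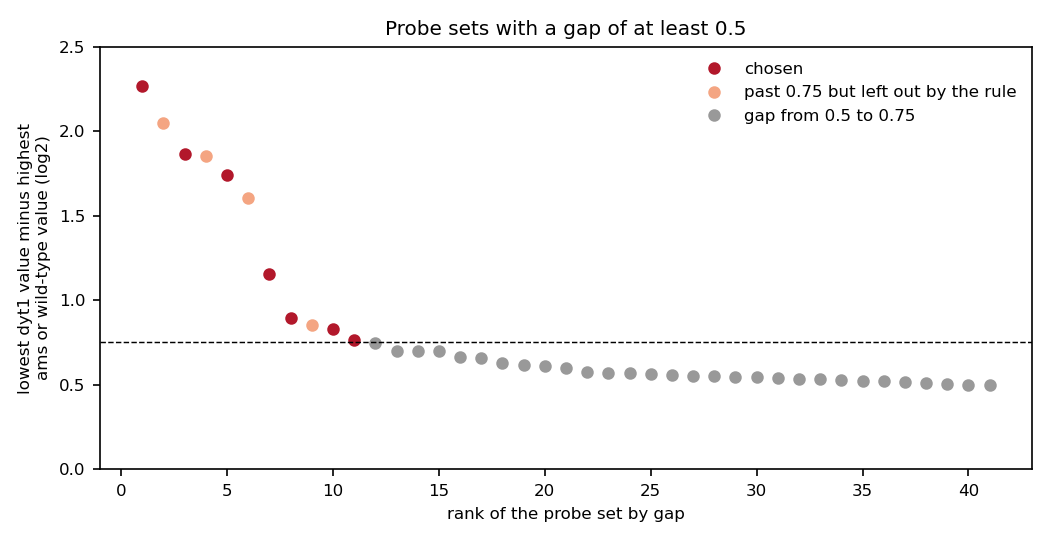
The 41 probe sets with a gap of at least 0.5, ranked by the gap between the lowest dyt1 value and the highest ams or wild-type value (log2). Red points are the 7 chosen, orange points the 4 left out by the rule and grey points the 30 below the threshold of 0.75 (dashed line); the points run on through the threshold without a step.

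Lowering the gap to 0.5 gave 37 probe sets after the same exclusions, the 7 and 30 more, of which 18 had 1 annotated gene and 5 a gene symbol. These 5, named after their values were seen, were of mixed kinds. AGL87, a MADS-box transcription factor, averaged 7.37 ± 0.18 in dyt1, 6.43 ± 0.25 in ams and 5.85 ± 0.46 in wild type (SD, n = 3 each). CRR42, a chloroplast protein of the chlororespiratory reduction class, averaged 7.19 ± 0.11 in dyt1, 5.98 ± 0.46 in ams and 6.34 ± 0.23 in wild type. IQD31, a calmodulin-binding protein of the IQ67-domain family, averaged 9.75 ± 0.05 in dyt1, 9.02 ± 0.08 in ams and 8.82 ± 0.49 in wild type. UBP25, a ubiquitin-specific protease, averaged 8.31 ± 0.06 in dyt1, 7.55 ± 0.14 in ams and 7.54 ± 0.14 in wild type. PDF1.2, a plant defensin induced by jasmonate and ethylene, averaged 5.45 ± 0.17 in dyt1, 4.48 ± 0.02 in ams and 4.70 ± 0.16 in wild type, and both of the lower means cannot be told from background.

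The 4 probe sets past the gap that the rule left out had these values. AT2G16960 had 7.89, 6.51 and 7.80 in dyt1, 3.92, 3.62 and 3.94 in ams and 4.46, 3.98 and 4.19 in wild type, with its gap of 2.05 second only to that of AT1G35650. AT1G42705, a pseudogene in RefSeq like AT1G35650, had 8.85, 8.88 and 8.62 in dyt1, 5.04, 5.38 and 5.48 in ams and 7.02, 6.31 and 6.20 in wild type. EXPB1, a beta-expansin that loosens cell walls, had 7.27, 7.33 and 7.23 in dyt1, 5.77, 6.37 and 5.39 in ams and 5.62, 5.62 and 5.07 in wild type. AT1G58025 had 10.5, 10.3 and 10.3 in dyt1, 4.25, 4.48 and 5.07 in ams and 8.41, 8.03 and 7.83 in wild type, so its ams values lay far under both other genotypes.

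Position, as gene order in RefSeq, was read independently of the arrays, as was the listing as pseudogene or protein coding given above. The named genes lie on chromosomes 1 (AT1G35650), 2 (AT2G30120) and 4 (AT4G03156 and AT4G22390), and no 2 of them were close. Of the 5 annotated probe sets, 2 sit in stretches of chromosome 1 rich in pseudogenes. How many of all probe sets sit in such stretches was not counted, so nothing is read from the 2. Of the 50 genes nearest to AT1G35650, 25 on each side, 18 (36%) are pseudogenes, and of the 50 nearest to the gene pair read by 256166_at, whose members are neighbours on chromosome 1, 32 (64%) are. The shares were 4% around AT4G03156, 6% around AT4G22390 and 0 of 50 around AT2G30120, beside 12.7% of all 38300 RefSeq entries placed on a chromosome or organelle. Among the probe sets left out by the rule, the share was 60% around AT1G42705, 16% around AT2G16960, 14% around AT1G58025 and 6% around EXPB1.

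Of the 48 measured neighbours of the named genes, 2 (4.17%) had dyt1 values above all others, where 5.45% of all probe sets did. Within 15 genes on either side, AT1G35650 had 11 measured neighbours, and their dyt1 minus wild-type log2 differences had a median of -0.01 and ran between -0.57 and 1.77. The highest was AT1G35612, with 6.69, 7.56 and 6.68 in dyt1, 6.90, 7.76 and 7.34 in ams and 5.71, 5.24 and 4.67 in wild type, so it was high in both mutants. The gene next to AT1G35650, AT1G35660, had 6.50, 6.44 and 6.44 in dyt1, 5.29, 5.05 and 5.81 in ams and 6.31, 6.29 and 5.73 in wild type, a gap of 0.13. The 13 measured neighbours of AT4G03156 had a median of 0.33, beside 0.05 over all probe sets, and ran between -0.25 and 1.11 (AT4G03170), with AT4G03100 at 1.07. One of them, hemf2, had dyt1 values clear of all others, with 8.04, 8.22 and 7.93 in dyt1, 7.21, 7.42 and 7.51 in ams and 6.87, 6.72 and 7.48 in wild type. The 14 neighbours of AT4G22390 (median -0.17, highest 0.52) and the 10 of AT2G30120 (median 0.13, highest 0.59) held none with dyt1 values above all others. None of the 48 neighbours met the 0.75 gap.

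**Figure D4:**
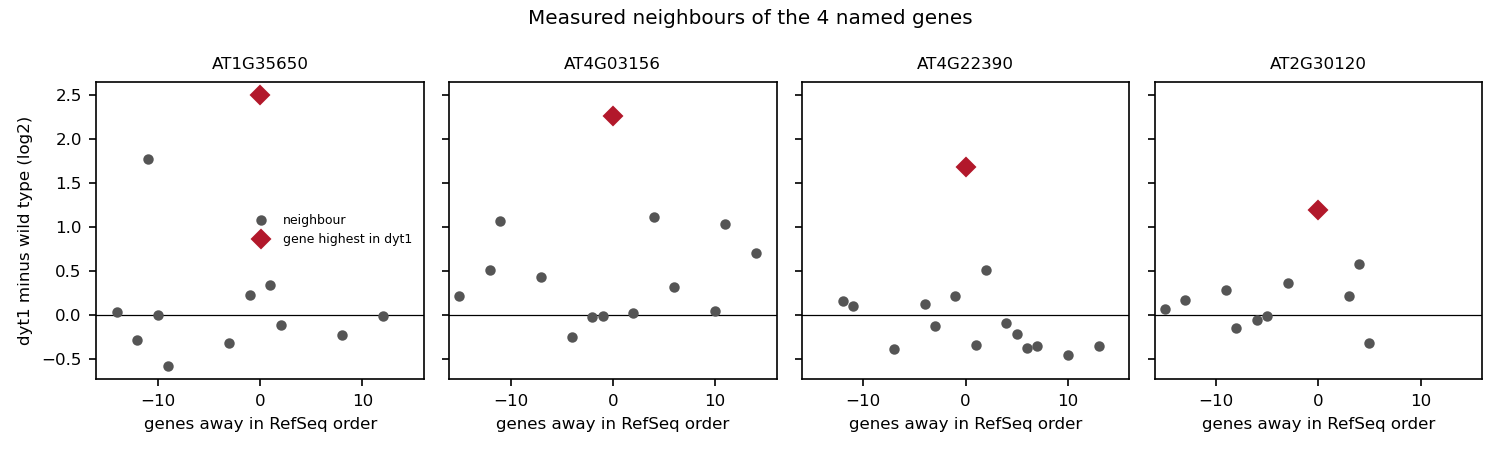
Dyt1 minus wild-type differences (log2) of measured genes within 15 genes of the 4 named genes, by distance in RefSeq gene order, with the named gene as a red diamond. Differences are of measured signal, the wild-type signal of AT1G35650 and AT4G03156 is at background, and the diamonds were chosen to be high; the highest neighbour is AT1G35612 at 1.77.

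AT4G22390 lies on the same chromosome as DYT1, 156 annotated genes away. The 49 measured probe sets between the 2 genes had a median dyt1 minus wild-type difference of 0.09, from -0.75 to 2.35, and 3 of them (6.12%, against 5.45% of all probe sets) had dyt1 values above all ams and wild-type values, by at most 0.33. None reached the 0.75 gap.

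The known pathway around DYT1 was in part measured. Of 15 listed regulators of tapetum fate and function, 7 had a named probe set, and 1 of the 7 was called lower in dyt1 than in wild type at an adjusted p under 0.05 (limma), none higher. That one was AMS, at 4.80 ± 0.85 in dyt1, 9.45 ± 0.14 in ams and 7.73 ± 0.19 in wild type (SD, n = 3 each). Its dyt1 minus wild-type difference was -2.93 (limma adjusted p = 0.0288). With dyt1 3 left out, 0 probe sets were called lower in dyt1 than in wild type, so the AMS call was lost. EMS1, a receptor kinase that specifies the tapetum, averaged 10.2 in each of dyt1 and wild type. SPL, an early regulator of sporogenous cell fate, averaged 9.21 ± 0.09 in dyt1 and 9.30 ± 0.45 in wild type. Others were less even. AT1G06170 had 9.78, 5.78 and 9.60 in dyt1, and AT2G31210 had 8.34, 4.73 and 8.10, both lowest of all arrays in dyt1 2. Their wild-type means were 9.56 and 7.13. ROXY2 averaged 9.79 in dyt1 and 9.07 in wild type, and ROXY1 5.81 and 5.36. The lists held 0 of the 7 chosen probe sets. The 6 measured tapetal products, such as the lipid transfer protein genes, had a median dyt1 minus wild-type difference of -4.24 with 0 called against wild type and 2 called lower in dyt1 than in ams, and their log2 summed signal was 8.07 to 12.9 in dyt1, 11.8 to 13.8 in ams and 14.9 to 15.1 in wild type. Array dyt1 2 was the lowest dyt1 array for each of the 6, such as AT5G07230 with 11.1, 4.68 and 10.8 in dyt1. Without it the median was -2.72 with 2 called lower than in wild type. The median of dyt1 minus ams was -2.36 on all arrays and -0.68 without dyt1 2. In that second fit 1 of the 6 was called higher in dyt1 than in ams and 1 lower. Whether the lower summed tapetal signal in dyt1 than in wild type plays a part in the values of the chosen probe sets was not tested.

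Markers of other cells were called in few cases. The summed signal of 3 measured green-tissue genes was 12.7 to 13.2 in dyt1, 13.1 to 13.5 in ams and 12.8 to 13.2 in wild type. LHCB4.2, a light-harvesting protein of photosystem II, was called lower in dyt1 than in ams (log2 difference -1.01, limma adjusted p = 0.0191) and higher in ams than in wild type (1.23, limma adjusted p = 0.00908). That of 3 meiocyte genes was 6.87 to 7.71 in dyt1, 7.02 to 8.18 in ams and 6.59 to 7.71 in wild type, with 0 called in any comparison. The 4 measured pollen genes (10.3 to 11.4 in dyt1, 10.05 to 11.6 in ams, 11.3 to 12.5 in wild type) and the ovule gene INO also had 0 calls. The heat shock genes were high in 2 of the 3 dyt1 arrays. AT1G53540 had 10.7, 4.68 and 9.08 in dyt1, 4.38, 4.45 and 5.96 in ams and 4.70, 4.47 and 6.73 in wild type, so dyt1 1 and 3 stood above every other array and dyt1 2 did not. Over the 3 measured heat shock genes the median log2 difference was 2.51 for dyt1 minus wild type and 2.53 for dyt1 minus ams, with 0 called in either. Without dyt1 2 the medians were 3.86 and 3.40, with 2 of 3 called higher in both. Whether this signal plays a part in the values of the 7 was not tested. The 2 measured genes of abscisic acid and water deficit had 0 calls, and PDF1.2, the one measured defence gene, was called higher in dyt1 than in ams (at least 1.76-fold, limma adjusted p = 0.00928) and not against wild type (limma adjusted p = 0.0865), though called there without dyt1 2. The epidermis and stamen identity lists had 0 named probe sets.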

How the data were processed

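RNA of 9 anther samples was hybridised to 1 Affymetrix array each. The deposited values are log2 and were computed by the authors with RMA (named without a version in the submitters' processing notes). The sources used here do not say whether all arrays were normalized together, and the table carries no detection calls. Array medians were 6.75 on wild type 1 and 2 and 6.87 to 6.94 on the others, so the values do not share 1 distribution. The table held 22810 probe sets, and its 64 control probe sets were used only to describe the arrays. The platform annotation gave 1 gene for 13513 of the 22746 others, several for 503 and none for 8730; 13436 matched RefSeq genes of TAIR10.1, used for names and gene order only, since the array's build is not named.

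Members were chosen by the rule in Python 3.11.15. A linear model of genotype was fitted per probe set on the 9 arrays (limma 3.58.1, lmFit then eBayes, R 4.3.3), and p-values of each comparison were adjusted by Benjamini-Hochberg across the 22746. On simulated data with 200 changed of 22746 probe sets in ams against wild type, 30%, 79.5% and 91.5% were recovered at 2-, 4- and 8-fold; the number of arrays limits the precision. The members and lists were chosen with earlier results of these data known. Named were the 20 members with the widest gap (here all with 1 gene), 5 probe sets on each side of the threshold, and list genes; a list gene is its brightest probe set. Single-gene lookups by position, the 0.5 to 0.75 genes, the gene lists without dyt1 2 and the 25S sets, a split of the arrays at a 25S signal of 11, were chosen after seeing the data. Each genotype has samples numbered 1 to 3 in the labels. Deviations of same-numbered arrays correlated between -0.01 and 0.24, over 0.1 in 4 of 9 pairs. Those of differently numbered arrays correlated between -0.27 and 0.14. These values do not settle whether the numbers pair samples. The main fit did not pair them, and counts with the replicate number as a block are given below.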

Additional observations from a re-analysis of the deposited data

How the results depend on the processing

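Besides the rule's own settings in the report (gap of 0.5, 37 probe sets; gap of 1.0, 4; single arrays left out, 10 to 198; wild type 3 and dyt1 2 both left out, 241), the calls over all probe sets moved most. In dyt1 against wild type, 44 were called, 17 higher and 27 lower (10 and 34 with arrays centred on their medians); the count was 29 with quantile normalization, 8744 with array weights, 8 with only the groups compared in the fit, 274 with the 25S set as a block, 3720 without wild type 3 and dyt1 2, and 1 to 702 with single arrays left out. In dyt1 against ams, 1108 were called; the count was 729 with the replicate number as a block, 8956 with array weights, 1979 with only the groups compared, 5958 without wild type 3 and dyt1 2, and 354 to 2945 with single arrays left out. In ams against wild type, 798 were called; the count was 545 with the replicate block, 8916 with array weights, 7862 without wild type 3 and dyt1 2, and 279 to 4146 with single arrays left out. With the replicate block, 54 were called in dyt1 against wild type.

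Of the 7 members, 6 were called in dyt1 against wild type, 2 with only these groups in the fit, 5 with the replicate block and 1 to 7 with single arrays left out. All 7 were called in dyt1 against ams in every setting run. The rule chose on both of these dyt1 contrasts, so nothing is read from either count. In ams against wild type none was called higher in any setting, and 3 were called lower with array weights and 1 (256166_at, limma adjusted p = 0.0278) without wild type 3 and dyt1 2. Probe set 257982_at, at -0.12, turned to 0.037 with the 25S set as a block (limma adjusted p = 0.913); the cause was not tested. Of 378 recomputed single values 366 kept their call or stayed within 1 SD of the dyt1 arrays, 7 moved beyond it, 4 gained a call and 1 changed sign. Settings such as the replicate block, or only the compared groups in the fit, leave a difference of means unchanged. The members were also chosen for wide dyt1 gaps, so nothing is read from the 366. Dim probe sets and 3 arrays per genotype limit what small differences can be seen.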
